A study of Homo sapiens with 8 samples.

Results

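The 8 genes described here encode the subunits of the cytosolic chaperonin TRiC, also called CCT: TCP1 (the alpha subunit), CCT2 (beta), CCT3 (gamma), CCT4 (delta), CCT5 (epsilon), CCT6A (zeta), CCT7 (eta) and CCT8 (theta). They were found by symbol in a deposited table of 9339 genes, and all 8 had a value. They were followed in THP-1, a line of human monocytic acute leukaemia cells, either depleted of ALKBH5 by knockdown or left as controls. ALKBH5 removes the methyl group of N6-methyladenosine from RNA. Nuclease-protected RNA fragments, taken as ribosome footprints, and input RNA were sequenced from ALKBH5-knockdown cells and from control cells, with 2 libraries in each of the 4 groups and 8 in all. Neither the agent used for the knockdown nor the source of the replicates (separate cultures or one) is given in the labels. The errors below are those of the authors' fitted model. Any spread between libraries that enters them may be technical. Titles alone mark the control input libraries as controls, since their genotype label says "input".

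CCT is a double ring in which each ring holds one copy of each subunit. It encloses newly made proteins and folds them in a cycle driven by ATP. Actin and tubulin cannot reach their native state without it, and many proteins with WD40 repeats also pass through it. Prefoldin, a separate co-chaperone, hands nascent actin and tubulin over to the ring, and phosducin-like proteins act on the ring itself. Because the ring needs all of its subunits, the question asked of these genes was whether footprint abundance relative to input RNA, the translational efficiency, differed between knockdown and control for any subunit, and whether the subunits differed from one another.

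Values came from the authors' deposited table as 1 log2 fold change per gene with its standard error (SE), and there were 0 columns per library, so neither the level of a subunit in each library nor the depth of a library is known here. Which condition served as reference is not stated in the table, and every sign below is the deposited sign, so a positive value cannot be assigned to knockdown or control. ALKBH5 itself had a log2 fold change of 1.94 ± 2.30 (SE) at a mean signal of 4.85 in the authors' deposited table; this is no measure of how far its mRNA was reduced. Of the markers listed for cell types, 9 of 11 myeloid genes were measured (all but MPO and CD14). So were 1 of 7 lymphoid genes, 1 of 6 genes of epithelial cells and fibroblasts, and 0 of 6 genes of erythroid cells and megakaryocytes. The myeloid genes ran in mean signal from 4.55 (ITGAM) to 112772 (FCGR2A), with a median of 41.4. The lymphoid gene, NKG7, had 15.2 and the epithelial gene, KRT8, 4.33.

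No CCT subunit changed detectably in translational efficiency. The authors' deposited table (riborex with its DESeq2 engine) gives an adjusted p for 7 of the 8, and 0 of these passed 0.05, where 10 of 648 genes did (1.54%). At an unadjusted p under 0.05, 0 of 8 subunits passed, where 0.707% of all genes and 3.34% of genes in the subunits' range of mean signal did. The smallest unadjusted p of a subunit was 0.40, that of CCT5, and all 7 adjusted p-values stood at 0.999, the highest value in the authors' deposited table, which 510 genes share. The median log2 fold change of the 8 was 0.06, a ratio of 1.04, beside -0.02 over all genes and -0.10 over the other 981 genes in the subunits' range of mean signal. It was 0.17 when fold changes were centred on the median of the genes reaching a mean signal of 100, which stood at -0.11.

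The data also bound how large a change could have gone unseen. A 95% interval was computed from each deposited SE. All 8 intervals held 0, and all 8 lay within 1 log2 unit of 0 on both sides. A doubling or a halving of translational efficiency, relative to the deposited zero, thus lies outside each of them. That was so for 7.05% of all genes and for 56.7% of the other 981 genes in the subunits' range of mean signal, 88.4 to 709.2. The half-width of the interval is the size an estimated change must exceed for an unadjusted p under 0.05. It was 0.34 log2 units for CCT5, 0.50 for CCT6A, 0.54 for TCP1 and 0.94 for CCT2, the widest. A smaller estimate would not pass for those subunits, and a true change of that size could still be missed. A call by an adjusted p under 0.05 needs a larger estimate still. Taking DESeq2's error at face value, these intervals rest on 2 libraries per group. Whether translational efficiency shifted in all genes together was not tested.

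**Figure D1:**
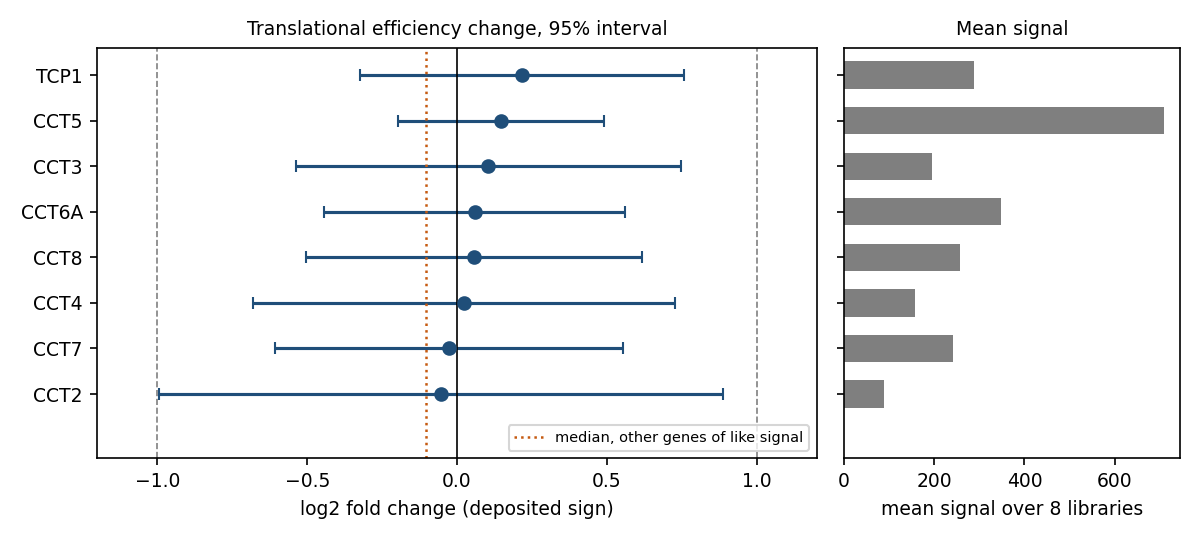
Left, log2 fold change of translational efficiency of each CCT subunit (points) with its 95% interval (bars), in the deposited sign; dashed lines mark 1 log2 unit on either side of 0, and the dotted line the median of the other 981 genes in the same range of mean signal, -0.10. Right, mean signal over the 8 libraries. All 8 intervals hold 0, all end inside the dashed lines, and the interval of CCT5, with the highest signal, is the narrowest.

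CCT2, CCT4 and CCT5 are the subunits that, in yeast, bind ATP most strongly. CCT5 had the smallest SE of all 8, with 0.15 ± 0.18 on the log2 scale (SE; unadjusted p = 0.40) at a mean signal of 709.2 in the authors' deposited table. Its interval ran from -0.20 to 0.49, a ratio between 0.873 and 1.41. CCT4 had a mean signal of 157.9, just above the 155.3 at which the authors' table begins to give adjusted p-values. In the authors' deposited table its log2 fold change was 0.02 ± 0.36 (SE; unadjusted p = 0.95), with an interval from -0.68 to 0.73. CCT2 had the lowest mean signal of the 8, 88.4, and no adjusted p. In the authors' deposited table its log2 fold change was -0.05 ± 0.48 (SE; unadjusted p = 0.91), and its interval, from -0.99 to 0.89, was the widest. These 3 subunits thus held both the most and the least precise values of the ring.

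CCT3, CCT6A and CCT8 bind ATP weakly in yeast. CCT6A, whose testis paralogue CCT6B had no value here, had 0.06 ± 0.26 on the log2 scale (SE; unadjusted p = 0.82) at a mean signal of 347.6 in the authors' deposited table. CCT8 stood almost at the same value, 0.06 ± 0.29 (SE; unadjusted p = 0.84), at a mean signal of 257.3 in the authors' deposited table. CCT3 had 0.10 ± 0.33 (SE; unadjusted p = 0.75) at a mean signal of 195.2 in the authors' deposited table. The upper ends of the intervals were 0.56 for CCT6A, 0.62 for CCT8 and 0.75 for CCT3.

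TCP1, the subunit for which the family is named, had the highest log2 fold change, 0.22 ± 0.28 (SE; unadjusted p = 0.43), at a mean signal of 287.4 in the authors' deposited table. Its interval ran from -0.32 to 0.76, a ratio between 0.799 and 1.69. CCT7 had -0.03 ± 0.30 (SE; unadjusted p = 0.93) at a mean signal of 242.4 in the authors' deposited table, and together with CCT2 it was one of the 2 subunits below 0. Both were above 0, at 0.083 for CCT7 and 0.056 for CCT2, with the centring on genes reaching a mean signal of 100.

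The subunits could not be told apart from one another. Ordered from high to low the log2 fold changes ran TCP1, CCT5, CCT3, CCT6A, CCT8, CCT4, CCT7, CCT2, over a span of 0.27 and with an SD of 0.09 between subunits, while their own SEs lay between 0.18 and 0.48. Of the 28 pairs, 0 had a difference whose 95% interval left out 0, taking the errors of a pair as independent. The largest difference, TCP1 minus CCT2, was 0.27 with an interval from -0.81 to 1.36. The intervals of 18 pairs lay within 1 log2 unit of 0 on both sides, so a pair of subunits moving apart by a factor above that bound lies outside those intervals, but for the other 10 it does not. The half-widths of the pair intervals were 0.61 at the narrowest and 1.18 at the widest.

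The order of the SEs followed the mean signal exactly, from CCT5 through CCT6A, TCP1, CCT8, CCT7, CCT3 and CCT4 to CCT2. Mean signal differed 8.02-fold between CCT5 and CCT2. Mean signal pools footprints and input RNA of both conditions and is not divided by transcript length. Among these 8 it ordered the precision of the values, but it does not give the relative amount of the subunits.

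All 8 subunits lay above the median of genes of like signal, while none of their intervals left out 0. A positive sign was found in 6 of 8 subunits, beside 48.1% of all genes and 34.9% of the other 981 genes between 88.4 and 709.2 in mean signal. The median of those 981 genes was -0.10 (quartiles -0.25 and 0.06), and the subunits ran from CCT2, which stood above 57.5% of the 981, through CCT7 (62.6%) and CCT4 (68.8%) to CCT5 (84.5%) and TCP1 (91.5%). The Wald statistics of the subunits, the fold change over its SE, ran from -0.11 to 0.84. All 8 were thus under 1 in size, as were 84.9% of the 981 and 97.2% of all genes. The SD of the statistic was 0.36 over the 8, 0.74 over the 981 and 0.43 over all genes. It was 1.06 over the 648 genes with an adjusted p, and a standard normal score has an SD of 1. Whether the deposited SEs are too wide for the subunits was not tested. The positions of the 8 within that range are a description: they come from the same libraries, and whether they differ from those of other genes was not tested.

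**Figure D2:**
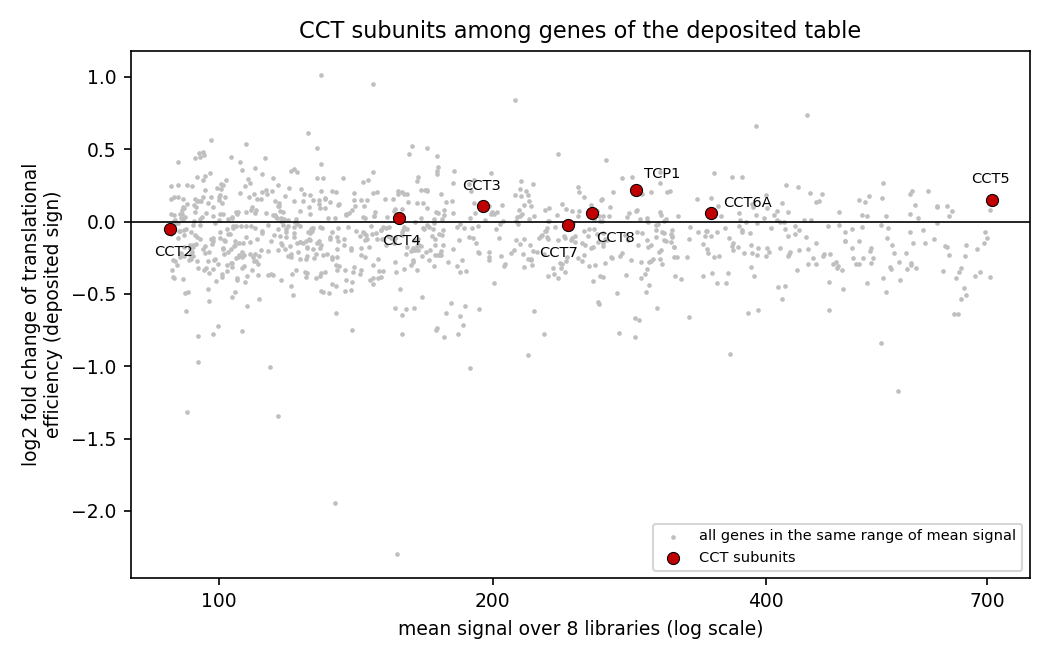
Log2 fold change of translational efficiency (vertical axis, deposited sign) against mean signal over the 8 libraries (horizontal axis, log scale). The 8 CCT subunits (red) are drawn over all genes between the lowest and highest mean signal of a subunit (grey). The subunits lie in a narrow band from -0.05 to 0.22 at every signal, above the median of the other 981 genes, -0.10.

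The genes lie on 7 chromosomes, and 2 of them share chromosome 2. Positions are the spans of the whole genes in GRCh38.p14, and all 8 are annotated as protein coding. TCP1 spans 159778498 to 159789602 on chromosome 6 and CCT5 spans 10249921 to 10266412 on chromosome 5. CCT4 spans 61868085 to 61888671 and CCT7 73234308 to 73253005 on chromosome 2. CCT3 is on chromosome 1 (156308968 to 156338292), CCT6A on chromosome 7 (56051765 to 56063989), CCT2 on chromosome 12 (69585459 to 69601570) and CCT8 on chromosome 21 (29056326 to 29073648). The span of TCP1 holds the snoRNA genes SNORA20 and SNORA29 and overlaps ACAT2, a thiolase gene, and the span of CCT6A holds SNORA15 and SNORA22B. CCT4 overlaps COMMD1, a regulator of copper handling, and a long noncoding RNA gene, and CCT3 overlaps the protein-coding gene TSACC. Among these, ACAT2 had 0.31 ± 0.66 (SE) and COMMD1 0.24 ± 0.94 (SE) in the authors' deposited table. TSACC, the long noncoding RNA gene and the snoRNAs had no row. The annotation holds 16 pseudogenes named after 7 of the 8 genes (all but CCT2), 5 of them after CCT6A, and 0 of the 16 had a row. The sources used here do not say how reads shared with such copies or with overlapping genes were counted, or whether strand was used, so the values of these 7 genes are uncertain in that respect.

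The start of an mRNA carries the best known sequence signal for joint control of the translation machinery's own mRNAs: a 5′ terminal oligopyrimidine tract, a C at the first base followed by an unbroken run of C or T. The bases at the annotated starts (RefSeq, GRCh38.p14) are shown for the subunits with the highest fold changes and for those that begin with C. In each, 10 bases before the start and 20 from it on are given on the gene's strand, with the run of C and T that begins with C at the first transcribed base in capitals, where there is one.
TCP1, chr6:159789583-159789612, minus strand: tgtgttacccagtagctcctgggacatcgc
CCT5, chr5:10250527-10250556, plus strand: cggctctgccatgtgctccccggaaaggtc
CCT8, chr21:29073629-29073658, minus strand: tgtgcgtgctCCTCgcttcctccgcggtct
CCT4, one annotated start, chr2:61888637-61888666, minus strand: ggaaggccccCTTCTCCgcctccgcctcct
CCT4, other annotated start, chr2:61888652-61888681, minus strand: agcgccgcgcggcaaggaaggcccccttct

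A tract of at least 5 bases was present in 1 of the 7 subunit genes with a sequence here (all but CCT6A), namely CCT4, where it has 7 bases and occurs at 1 of its 2 annotated starts. In CCT8 the run has 4 bases. At the starts shown, TCP1 and CCT5 begin with A and have none. The CCT5 start shown lies inside the span of the gene, downstream of its first base at 10249921. The bases at that first base were not searched. By the same search 44 of 65 cytosolic ribosomal protein genes (67.7%) and 1404 of all 27305 genes with a sequence (5.14%) had such a tract, as did 593 of the 7409 that match a gene of the deposited table by symbol. Annotated starts can be off by several bases, and a run is a description of these letters alone. CCT4, with the tract, had a log2 fold change of 0.02, between those of CCT8 (0.06) and CCT7 (-0.03) in the authors' deposited table.

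No gene of prefoldin, the prefoldin-like proteins or the phosducin-like cofactors passed the adjusted test, and most were too low in signal for one. Their signs stand beside a positive share of 48.1% among all genes and 34.9% among genes in the CCT subunits' range of mean signal. Of 6 prefoldin subunits, 1 was positive and 5 negative, the median on the log2 scale was -0.16, and 0 of 2 with an adjusted p passed. In the authors' deposited table PFDN2 had -0.32 ± 0.25 (SE; adjusted p = 0.96), PFDN5 had -0.25 ± 0.30 (adjusted p = 0.999) and PFDN1 had -0.27 ± 0.51, with no adjusted p. Of 7 prefoldin-like and R2TP proteins, which assemble RNA polymerases and other large complexes, 5 were negative, with a median of -0.18 and no adjusted p for any. There PIH1D1 had -0.44 ± 0.51, RPAP3 -0.58 ± 0.97 and UXT -0.18 ± 0.52 (SE) in the authors' deposited table. All 4 measured phosducin-like and other CCT cofactors were negative, with a median of -0.31, and 1 had an adjusted p. PDCD5, a small protein that binds the ring, had -0.60 ± 0.36 (SE; adjusted p = 0.70), PDCL -0.48 ± 2.03 and PDCL3 -0.14 ± 0.73 in the authors' deposited table.

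Of 10 measured actins and tubulins, the obligate substrates of the ring, 7 were positive and 3 negative, and the median on the log2 scale was 0.07. ACTB, beta-actin, had 0.16 ± 0.08 (SE; unadjusted p = 0.031, adjusted p = 0.44) at a mean signal of 6546 in the authors' deposited table. ACTG1, gamma-actin, had 0.18 ± 0.11 (SE; adjusted p = 0.76) and TUBA1B, an alpha-tubulin, 0.19 ± 0.18 (SE; adjusted p = 0.999) in the authors' deposited table. ACTB passed when fold changes were centred on the genes reaching a mean signal of 100 (adjusted p = 0.027), and did not as deposited. Nor did it pass when centred on the median of all genes (adjusted p = 0.31) or with adjustment over all genes. Reads shared among near-identical actin and tubulin genes leave these values uncertain. Of 15 WD40 and other substrates, 12 were positive, with a median of 0.21, and 0 of the 2 with an adjusted p passed. PPP4C, a phosphatase subunit, had 0.28 ± 0.40 (SE), GNB5, a G protein beta subunit, 0.80 ± 1.15 and the cyclin CCNE1 1.25 ± 2.20 in the authors' deposited table. The median SE of the WD40 and other substrates was 1.12, beside 0.29 for the CCT subunits, and their median mean signal was 24.1. The positive counts of both substrate lists stand beside 48.1% among all genes and 34.9% among other genes in the CCT subunits' range of signal.

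Of 6 tubulin folding cofactors, which take tubulin after its release from the ring, 3 were positive and 3 negative, with a median of 0.01. TBCA, which binds beta-tubulin, had the most negative value, -0.80 ± 0.28 (SE; unadjusted p = 0.0039, adjusted p = 0.13), in the authors' deposited table, TBCB had -0.05 ± 0.52 and TBCD 0.40 ± 2.01. TBCA had nearly the mean signal of TCP1, 286.7 beside 287.4, and nearly the same SE. The cytosolic HSP70 and HSP90 system acts upstream of and beside the ring. Of its 18 measured genes 11 were positive, with a median of 0.09, and 0 of 5 with an adjusted p passed. The positive share was 48.1% among all genes and 34.9% among other genes in the CCT subunits' range of mean signal. In the authors' deposited table HSP90AA1 had -0.61 ± 0.24 (SE; unadjusted p = 0.0099, adjusted p = 0.24), HSPA8, the constitutive HSP70, 0.19 ± 0.16 (adjusted p = 0.999) and ST13, an HSP70 cofactor, -0.49 ± 0.49.

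**Figure D3:**
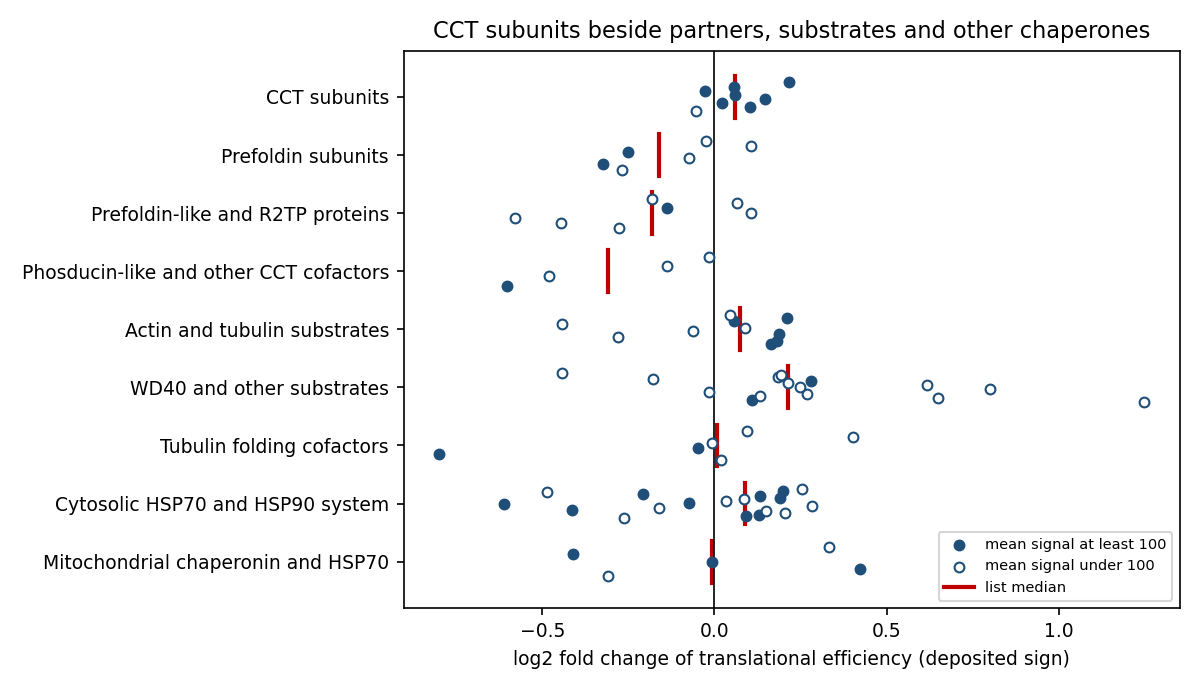
Log2 fold change of translational efficiency (horizontal axis, deposited sign) of each measured gene in the CCT subunits and in 8 lists of related genes (rows). Filled points have a mean signal of at least 100 and open points less, and the red bar is the median of the list, at 0.06 for the CCT subunits, -0.16 for the prefoldin subunits and 0.09 for the cytosolic HSP70 and HSP90 system. The 8 CCT subunits spread over 0.27 log2 units.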

How the data were processed

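The one deposited table compares translational efficiency over the whole series. Per its name, the authors ran riborex with the DESeq2 engine, versions not given in the sources used here. CASAVA, HISAT2 2.1.0, kallisto and hg38 are named, without roles, in the submitters' processing notes. Per the labels' protocols, lysates were digested with micrococcal nuclease and fragments selected by size on a gel. The mean signal (baseMean per the file headers), the log2 fold change and its SE, the Wald statistic (a score), the p-value and the adjusted p-value are the authors' deposited values. The statistic equals fold change over SE, and the adjusted p follows from Benjamini and Hochberg over 648 genes. Library depth is unknown.

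Computed here (Python 3.11.15, pandas 2.3.3, SciPy 1.17.1) were 95% normal intervals, pair differences and, under the alternatives, p-values recomputed after centring or adjusted over all genes. The interval and adjustment steps were tested on simulated data drawn with the deposited SEs, so whether those SEs are right was not tested. The threshold for a call was an adjusted p of 0.05. The members and the 10 other gene lists were chosen with earlier results of these data known. The genes named were all members, ALKBH5, and the 3 genes of each other list with the smallest p. HSPD1 and the overlapping genes were named after their values were seen. Positions and symbols are from RefSeq GRCh38.p14, where 8 of 8 members matched, 7 with a start sequence.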

Additional observations from a re-analysis of the deposited data

How the results depend on the processing

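The count of CCT subunits called was 0 under each of the 3 alternatives run: adjustment over all 9339 genes, and fold changes centred on the median of all genes (-0.02) or of the genes reaching a mean signal of 100 (-0.11). At an unadjusted p under 0.05 it was also 0 of 8 in each, with a lowest p of 0.14 in the last. The calls over the whole table numbered 7, 7 and 9 in the same order, beside 10 as deposited; in the last, 3 were positive and 6 negative, beside 0 positive and 10 negative as deposited. Centring on the genes reaching 100 turned 4 named genes positive: CCT2 (0.056), CCT7 (0.083), TBCB (0.060) and HSPD1 (0.10, and 0.010 when centred on all genes), so that all 8 subunits were positive there. This follows from the shift itself. The median of the 8 was 0.08 and 0.17 under the 2 centrings, beside 0.06 as deposited; their mean weighted by the inverse squared SE was 0.09, and leaving out 1 subunit at a time gave medians that all rounded to 0.06. No paired analysis was possible because the table holds no column per library, and no replicate could be left out for the same reason. The SE fell as mean signal rose among the subunits: the SE times the square root of the mean signal lay between 4.51 and 4.77. Its median over the other 981 genes in their range of mean signal was 4.85.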

Other observations

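The mitochondrial matrix has a chaperonin of the other family, made of HSPD1 with its lid HSPE1. Of 5 measured genes of the mitochondrial chaperonin and HSP70 list, 2 were positive and 3 negative, and the median was -0.01 on the log2 scale. In the authors' deposited table HSPE1 had -0.41 ± 0.15 (SE; unadjusted p = 0.0078, adjusted p = 0.23), HSPA9, the mitochondrial HSP70, 0.42 ± 0.31 (adjusted p = 0.94) and GRPEL1, its nucleotide exchange factor, -0.31 ± 0.51. HSPD1, named after its value was seen, had -0.01 ± 0.23 (SE) in the authors' deposited table. The heat shock factors HSF1 and HSF2 had -0.23 ± 1.01 and 0.28 ± 1.75 (SE) in the authors' deposited table. Of 5 chaperonin-like genes looked for, CCT6B among them, 1 had a value: MKKS, with 1.39 ± 2.20 (SE) at a mean signal of 8.53 in the authors' deposited table.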
